A study of Mus musculus with 2 samples.

Results

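Proteasome subunit genes were followed through the cells of the mouse testis. The members are the 48 gene symbols, of 31053 features in the deposited matrices, that follow the naming pattern Psma, Psmb, Psmc, Psmd, Psme, Psmf or Psmg plus a number. They cover the alpha and beta rings of the core particle, the ATPases and other subunits of the regulatory particle, the activators, the inhibitor Psmf1 and the assembly chaperones, with the testis subunit Psma8 and the immune subunits Psmb8, Psmb9 and Psmb10 among them. All 48 had at least 1 UMI (unique molecular identifier, a count of 1 captured transcript) in each library.

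The samples were testes of 8-month-old mice, with 1 library from an Igf2bp1 conditional knockout and 1 library from wild type. IGF2BP1 is an RNA-binding protein. The sources used here do not settle the Cre driver, the deleted exons or how many mice went into a library, so each library counts as 1 sample. Digested tissue was loaded on a 10x Genomics chip, and the 2 libraries held 98033324 UMIs over 17968 barcodes in the knockout and 121257944 UMIs over 17362 barcodes in wild type.

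The proteasome is a barrel-shaped protease that degrades proteins tagged with ubiquitin. Stacked alpha and beta rings form the core, of which the beta subunits Psmb5, Psmb6 and Psmb7 carry the active sites, and a regulatory particle with Psmc ATPases unfolds the substrate. Germ cells replace the alpha subunit Psma7 by the paralog Psma8 during meiosis, immune cells replace the active beta subunits by Psmb8, Psmb9 and Psmb10, and the activators Psme1 to Psme4 bind the ends of the core in place of the regulatory particle.

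Cells were sorted into classes by marker genes, so each class name stands for cells with the markers of that type. The classes compared held, in the knockout and in wild type, 98 and 141 spermatogonia, 135 and 291 cells of a cluster led by Piwil1 (a piRNA-pathway gene of meiotic cells), 256 and 1115 late spermatocytes, 377 and 854 round spermatids, 68 and 167 cells of a spermatid cluster led by Hemgn, 857 and 1681 elongating spermatids, 982 and 766 Sertoli cells, 381 and 46 Leydig cells, 272 and 50 macrophages, and 31 and 63 cells of a cluster led by Stra8 and Prss50. The knockout library also held 349 B lymphocytes, where wild type had 0, and 117 T or NK lymphocytes, where wild type had 4. Empty-like barcodes made up 8287 of 17703 kept knockout barcodes and 11510 of 17002 kept wild type barcodes, and 103 barcode sequences occurred in both libraries. Clusters in which Leydig and other somatic genes stood beside protamines held 4785 knockout and 84 wild type barcodes and were left out of the classes. Igf2bp1 itself was lower in knockout spermatogonia, with 17 UMIs (23.4 CPM, 95% interval 13.6 to 37.5), against 72 UMIs (68.0 CPM, 53.2 to 85.6) in wild type spermatogonia. CPM is the number of UMIs of a gene per 1000000 UMIs of its class. With 1 library per genotype no test between genotypes was possible. Every interval below is a 95% interval for counting error alone and does not cover differences between animals.

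The promoter windows of some members whose levels changed along the germ line are shown first: Psma6 and Psmf1, highest in elongating spermatids, and Psma7 and Psme1, highest in spermatogonia among the germ cells. They are RefSeq windows on GRCm38.p6, from 250 bases before to 50 bases after a transcription start, printed 5′ to 3′ on the strand of the gene. Psma6 has a window on the plus strand at chr12:55383972-55384271 and another, inside the gene, at chr12:55398575-55398874. The Psmf1 window lies on the minus strand at chr2:151741261-151741560, the Psma7 window on the minus strand at chr2:180042415-180042714 and the Psme1 window on the plus strand at chr14:55578244-55578543. Capitals mark an interferon-stimulated element, spelled GAAA, any 2 bases, GAAA, on either strand.
Psma6, upstream window: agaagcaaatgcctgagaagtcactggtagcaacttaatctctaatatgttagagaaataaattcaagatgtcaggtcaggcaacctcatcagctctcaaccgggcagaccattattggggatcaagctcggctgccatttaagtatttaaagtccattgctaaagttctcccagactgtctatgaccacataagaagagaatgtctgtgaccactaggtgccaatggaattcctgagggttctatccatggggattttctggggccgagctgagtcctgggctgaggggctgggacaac
Psma6, window inside the gene: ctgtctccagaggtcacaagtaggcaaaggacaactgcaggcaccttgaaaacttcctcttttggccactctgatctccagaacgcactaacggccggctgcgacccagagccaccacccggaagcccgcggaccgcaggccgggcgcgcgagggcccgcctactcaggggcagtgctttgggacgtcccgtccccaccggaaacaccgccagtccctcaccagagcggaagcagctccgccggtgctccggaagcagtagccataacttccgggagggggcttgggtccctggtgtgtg
Psmf1: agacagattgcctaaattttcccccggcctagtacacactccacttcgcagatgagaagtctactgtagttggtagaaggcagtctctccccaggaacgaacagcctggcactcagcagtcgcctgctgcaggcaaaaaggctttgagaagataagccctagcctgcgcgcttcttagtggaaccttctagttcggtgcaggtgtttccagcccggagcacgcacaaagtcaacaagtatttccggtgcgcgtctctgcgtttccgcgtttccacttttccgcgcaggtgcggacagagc
Psma7: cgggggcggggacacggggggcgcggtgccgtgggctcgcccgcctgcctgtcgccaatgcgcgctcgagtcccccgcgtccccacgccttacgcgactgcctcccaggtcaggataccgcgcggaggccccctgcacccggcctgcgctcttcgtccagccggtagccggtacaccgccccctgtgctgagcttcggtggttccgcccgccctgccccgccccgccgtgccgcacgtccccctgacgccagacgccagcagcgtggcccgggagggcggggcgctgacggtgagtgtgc
Psme1: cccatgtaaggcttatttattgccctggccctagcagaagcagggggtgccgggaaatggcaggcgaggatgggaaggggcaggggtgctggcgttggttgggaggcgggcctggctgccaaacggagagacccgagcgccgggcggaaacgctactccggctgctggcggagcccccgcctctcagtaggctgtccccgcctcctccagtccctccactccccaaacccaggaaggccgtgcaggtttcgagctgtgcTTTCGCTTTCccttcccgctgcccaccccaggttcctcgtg

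The interferon-stimulated element stood in the Psme1 window, among the 50 bases after the start and on the strand opposite to the gene. Psme1 encodes an activator that interferon is known to induce. The element was found in 5 of the 40 members that the promoter table holds (12.5%; Psmd4, Psmd9, Psme1, Psmb3 and Psmg4), against 3.99% of 27025 genes. The windows of Psmb8, Psmb9 and Psmb10 did not hold these letters. The sequence TGACNNNGC, which NFE2L1 binds when it induces subunit genes after proteasome inhibition, was searched on both strands too. It was found in 6 of the 40 (15%; Psmd9, Psmc6, Psmb5, Psme4, Psmb6 and Psmd12), against 14.0% of all genes, and Psmd9 was the only member with both motifs, in different places of the window. The upstream Psma6 window held 46.7% G or C and the inner one 65.0%, with 77.0% for Psma7, 54.7% for Psmf1, 66.3% for Psme1 and a median of 52.7% over 32851 windows. These counts describe letters in short windows and carry no test.

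Along the germ line the balance of Psma7 and Psma8 transcripts changed between spermatogonia and meiotic cells in both libraries. Psma8 (chr18:14706151-14762301, plus strand, GRCm38) is the testis paralog of Psma7 (chr2:180036374-180042433, minus strand) and takes its place in the alpha ring of meiotic cells. In the knockout library Psma8 stood at 34.4 CPM in spermatogonia, 205 in the Piwil1-led cluster, 74.2 in late spermatocytes, 28.7 in round spermatids and 7.68 in elongating spermatids. In wild type the same classes had 36.8, 233, 71.0, 24.7 and 7.02 CPM. The Piwil1-led cluster was thus the high point in both libraries, and the intervals of its level (189 to 222 CPM in the knockout and 224 to 243 CPM in wild type) lay above those of every other germ class. Psma7 moved the other way, with 285 CPM in knockout spermatogonia and 41.2 in the knockout Piwil1-led cluster, and with 386 and 36.1 CPM in the same classes of wild type. It was lower still in round spermatids, with 15.5 CPM in the knockout and 13.7 CPM in wild type. The tenth of barcodes with the fewest UMIs was taken as a reading of free RNA. Its barcodes had medians of 1302 UMIs in the knockout and 969 UMIs in wild type and could belong to any class. It may thus also hold cells, which was not tested. It held Psma8 at 35.4 CPM in the knockout and 44.7 CPM in wild type, and Psma7 at 33.2 to 50.1 CPM in the knockout and 14.8 to 29.3 CPM in wild type (intervals). Psma8 in spermatogonia and both genes from round spermatids on did not exceed those levels, whereas Psma8 in the Piwil1-led cluster and late spermatocytes and Psma7 in spermatogonia did.

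The share of Psma8 among the UMIs of both paralogs puts this on 1 scale. It was 10.8% (Clopper-Pearson interval 7.10 to 15.5) in knockout spermatogonia and 8.71% (6.26 to 11.7) in wild type spermatogonia. In the Piwil1-led cluster it was 83.3% (80.3 to 85.9) in the knockout and 86.6% (85.2 to 87.9) in wild type. Late spermatocytes had 78.4% in the knockout and 79.3% in wild type, and round spermatids had 65.0% in the knockout and 64.2% in wild type, differences inside the counting intervals. In elongating spermatids the share was 48.2% (40.9 to 55.5) in the knockout and 63.6% (58.0 to 69.0) in wild type, which rests on 191 and 308 UMIs of the pair. The barcodes with the fewest UMIs gave 46.4% (38.9 to 54.0) in the knockout and 67.9% (58.4 to 76.4) in wild type, and its part in the elongating value was not tested.

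Psma8 in somatic classes was a small part of the pair. The share was 9.52% (7.35 to 12.1) in knockout and 7.39% (5.11 to 10.3) in wild type Sertoli cells, and 4.34% (3.04 to 5.99) in knockout and 1.01% (0.0256 to 5.50) in wild type Leydig cells. A UMI of Psma8 was found in 76.3% of knockout and 85.2% of wild type cells of the Piwil1-led cluster, at median depths of 12457 and 38392 UMIs. After each cell was thinned to 1000 UMIs the shares were 15.6% of knockout and 17.9% of wild type cells. Empty-like barcodes thinned the same way gave 3.63% in the knockout and 3.55% in wild type, and spermatogonia gave 4.08% in the knockout and 4.96% in wild type, so that spermatogonia were near that background.

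**Figure D1:**
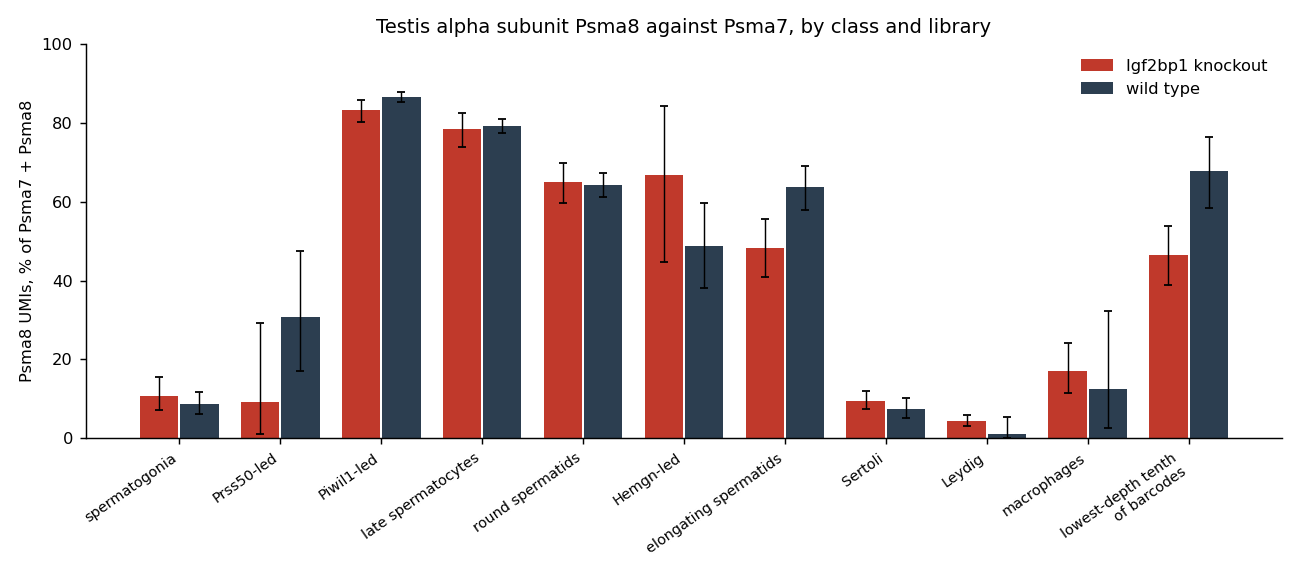
Psma8 UMIs as a percentage of Psma7 plus Psma8 UMIs (y axis) for each class (x axis), with the knockout bar left of the wild type bar and exact 95% intervals for counting error as error bars. The share stands near 10% in spermatogonia, at 83.3% in the knockout and 86.6% in wild type in the Piwil1-led cluster, and under 20% in the somatic classes shown.

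Most subunit genes were highest before the spermatid stages. Over spermatogonia, the Piwil1-led cluster, late spermatocytes, round and elongating spermatids, 44 members had at least 100 UMIs in each library, and 36 of them were highest in the same class in both. Spermatogonia were that class for 22 of the 44 members, against 27.4% of 9920 genes measured the same way. Among these were the alpha subunits Psma1, Psma2, Psma4, Psma5 and Psma7 and the beta subunits Psmb1, Psmb2, Psmb3, Psmb4 and Psmb7. The Piwil1-led cluster held the high point of 7 members (background 16.5%), Psma3, Psma8, Psmc5, Psmd4, Psmd6, Psmd12 and Psme4. Psme4 had 97.7 CPM there in the knockout and 91.7 CPM in wild type. Neither exceeded free RNA (135 CPM in the knockout and 102 CPM in wild type). How much of this high point was the cells' own expression was not tested. Late spermatocytes held the high point of Psmc3, Psmb6 and Psmd3 (background 14%), and round spermatids that of the ATPase Psmc2 and the chaperone Psmd10 (background 18.2%). Elongating spermatids held that of the alpha subunit Psma6 and the inhibitor Psmf1 (background 11.6%) and the lowest level, in both libraries, of 37 of the 44 (background 59.3%).

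Between spermatogonia and the Piwil1-led cluster, 2 of 41 measured members were over 2-fold higher in the Piwil1-led cluster of the knockout library (background 30.7%) and 8 were over 2-fold lower (background 22.1%). In wild type 3 of 44 were higher (28.6%) and 15 lower (29.2%). Psma8 and the ATPase Psmc3 were higher in both libraries. The lower ones in both were Psma7, the beta subunits Psmb1, Psmb2 and Psmb3, the ATPase Psmc6, the chaperone Psmd5 and the activators Psme1 and Psme3. Psmd5, which caps regulatory-particle bases before they join the core, had 20.1 CPM in the knockout Piwil1-led cluster, against 74.3 CPM in knockout spermatogonia, and 13.3 CPM in the wild type Piwil1-led cluster, against 68.9 CPM in wild type spermatogonia.

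Psma6, Psmf1 and Psmc3 followed courses of their own. Psma6 (chr12:55384222-55418454, plus strand) is an alpha ring subunit. In the knockout it had 497 CPM in spermatogonia, 353 in the Piwil1-led cluster, 336 in late spermatocytes, 1013 in round spermatids and 1698 in elongating spermatids. Wild type had 490, 331, 319, 1105 and 1891 CPM in the same order. The lowest CPM were thus in spermatocytes and the highest in elongating spermatids, in both libraries. Up to late spermatocytes these levels stayed below those of free RNA, given below. How much of the level in these classes was the cells' own was not tested.

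Psmf1 (chr2:151715812-151744186, minus strand), named as an inhibitor of the core particle in vitro, went up later. Its level was 226, 186, 208, 407 and 1702 CPM over the same classes of the knockout, and 192, 162, 187, 421 and 1661 CPM in wild type. The Hemgn-led spermatid cluster stood between, with 1440 CPM in the knockout and 1369 CPM in wild type. Psmc3 (chr2:91054009-91066369, plus strand), an ATPase of the regulatory-particle base, peaked in late spermatocytes at 1426 CPM (1389 to 1463) in the knockout and 1415 CPM (1400 to 1430) in wild type, and had 308 CPM in knockout and 229 CPM in wild type elongating spermatids.

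These 3 genes came to make up most of the proteasome UMIs of the Hemgn-led cluster and of elongating spermatids. Their part of all member UMIs was 16.7% in knockout and 14.1% in wild type spermatogonia, 32.0% in knockout and 31.2% in wild type late spermatocytes, 41.6% in knockout and 42.9% in wild type round spermatids, 64.4% in the knockout and 63.4% in wild type of the Hemgn-led cluster, and 77.3% in knockout and 81.1% in wild type elongating spermatids. The other 45 members together stood lower at each of these later stages. They summed to 6201 CPM (6021 to 6385) in knockout and 7272 CPM (7111 to 7436) in wild type spermatogonia, to 3583 CPM in knockout and 3456 CPM in wild type round spermatids, and to 1091 CPM (1072 to 1110) in knockout and 882 CPM (871 to 893) in wild type elongating spermatids. From round to elongating spermatids the level in elongating spermatids was over 2-fold lower for 33 of 39 measured members in the knockout (background 64.5%) and for 38 of 42 in wild type (background 69.2%). It was over 2-fold higher for 2 of 39 in the knockout (12.6%) and 2 of 42 in wild type (10.9%), which were Psmf1 and the activator Psme3. The direction was the same in both libraries for 39 of 39 members measured in both.

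CPM is a share, and the 12 marker genes of elongating spermatids, protamines among them, took 309459 CPM of knockout and 325614 CPM of wild type elongating spermatids, against 19563 CPM of knockout and 20459 CPM of wild type spermatogonia. A lower CPM there is lower relative to the other RNA of the class. Psma6, Psmf1 and Psmc3 were also frequent in the tenth of barcodes with the fewest UMIs, with 1001, 617 and 1087 CPM in the knockout and 1090, 673 and 1033 CPM in wild type. Sertoli cells had 832, 511 and 814 CPM in the knockout and 910, 564 and 770 CPM in wild type, all below those levels. How much of these 3 genes was the Sertoli cells' own was not tested. Psma6 and Psmf1 also stood below them in spermatogonia, the Piwil1-led cluster and late spermatocytes, as did Psmf1 in round spermatids. Psma6 in round spermatids lay inside the free RNA intervals, 961 to 1043 CPM in the knockout and 1041 to 1141 CPM in wild type. Psmc3 stood below free RNA in spermatogonia and elongating spermatids. This comparison cannot separate a class's own transcripts from free RNA at these levels, and the part of free RNA in them was not tested. On the other strand, Slc39a13 overlaps Psmc3.

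**Figure D2:**
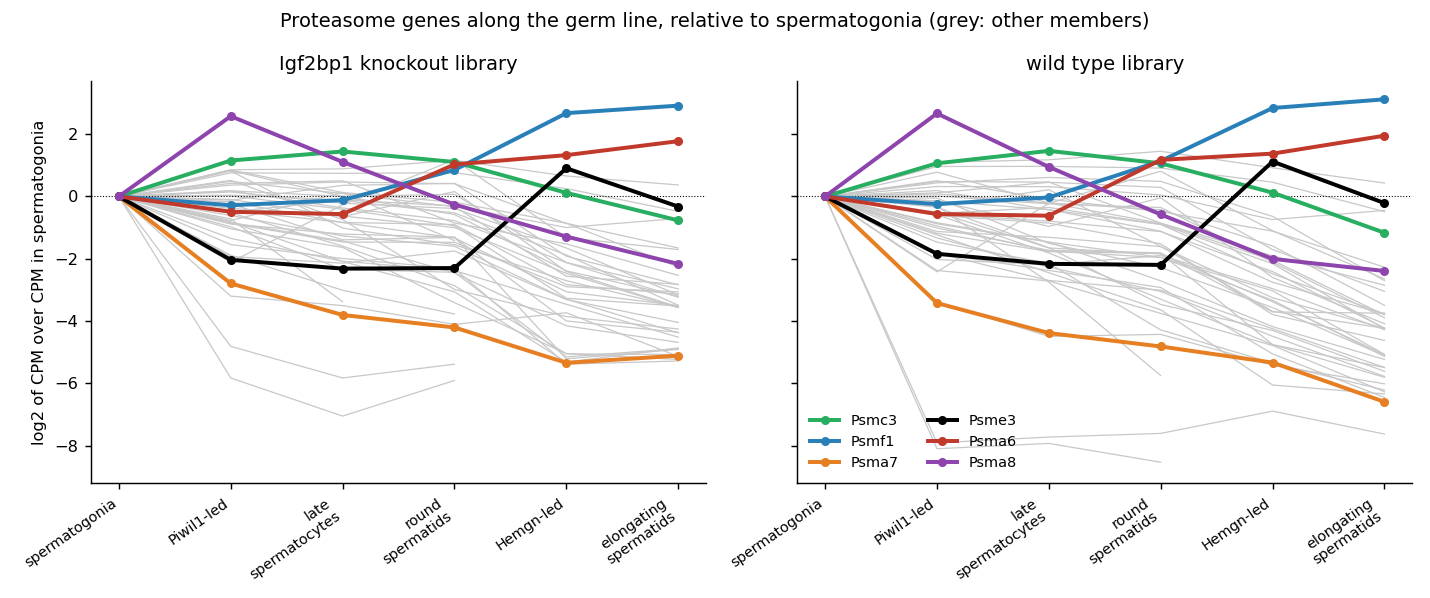
The log2 ratio of each member's CPM to its CPM in spermatogonia (y axis) along the germ line classes (x axis), in the knockout library (left) and the wild type library (right); coloured lines are named members and grey lines the others, with points under 3 UMIs left out. Psmf1 and Psma6 end above their level in spermatogonia, Psma8 peaks in the Piwil1-led cluster, and most grey lines go down.

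The activators changed along the germ line as well. Psme1 and Psme2 together form the ring-shaped activator that interferon induces, Psme3 forms a nuclear one, and Psme4 is a large single-chain activator known for its abundance in testis and its role in histone removal in spermatids. In spermatogonia Psme1 and Psme2 made up 29.1% and 22.7% of the activator UMIs in the knockout and 32.8% and 31.1% in wild type. In late spermatocytes Psme4 made up 77.8% (73.8 to 81.5) in the knockout and 81.1% (79.6 to 82.6) in wild type, while Psme1 had 1.94% in the knockout and 0.624% in wild type. Psme4 itself had 69 UMIs (interval 73.9 to 120 CPM) in knockout and 78 UMIs (58.2 to 91.9 CPM) in wild type spermatogonia, and 88.1 CPM in knockout and 91.6 CPM in wild type late spermatocytes. The barcodes with the fewest UMIs held it at 120 to 150 CPM in the knockout and 87.1 to 118 CPM in wild type (intervals), and there it made up 59.1% (54.8 to 63.3) of activator UMIs in the knockout and 56.7% (51.0 to 62.4) in wild type. Its level in these germ classes did not exceed that of free RNA, so its shares cannot separate the cells' own expression from free RNA. What changed was that Psme1, Psme2 and Psme3 were lower than in spermatogonia. The few Psme1 UMIs of late spermatocytes, 9 in the knockout and 17 in wild type, gave 2.19 CPM in the knockout and 0.704 CPM in wild type. The barcodes with the fewest UMIs had more, 14.9 CPM in the knockout and 1.76 CPM in wild type, so those UMIs are read as background.

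Psme3 was high again in the Hemgn-led spermatid cluster. It had 110 CPM in knockout and 89.7 CPM in wild type spermatogonia, and 22.4 CPM in knockout and 19.6 CPM in wild type round spermatids. The Hemgn-led cluster had 206 CPM (181 to 234) in the knockout and 195 CPM (183 to 208) in wild type, and elongating spermatids had 87.9 CPM in the knockout and 77.3 CPM in wild type. Its share of activator UMIs in the Hemgn-led cluster was 80.4% (75.4 to 84.8) in the knockout and 81.0% (78.6 to 83.2) in wild type. A UMI was found there in 80.9% of knockout and 89.8% of wild type cells, and after thinning in 20.6% of knockout and 18.0% of wild type cells, against 6.75% of knockout and 6.67% of wild type empty-like barcodes. In Leydig cells Psme1 was the main activator, at 49.7% (46.8 to 52.5) in the knockout and 56.1% (48.1 to 63.8) in wild type.

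**Figure D3:**
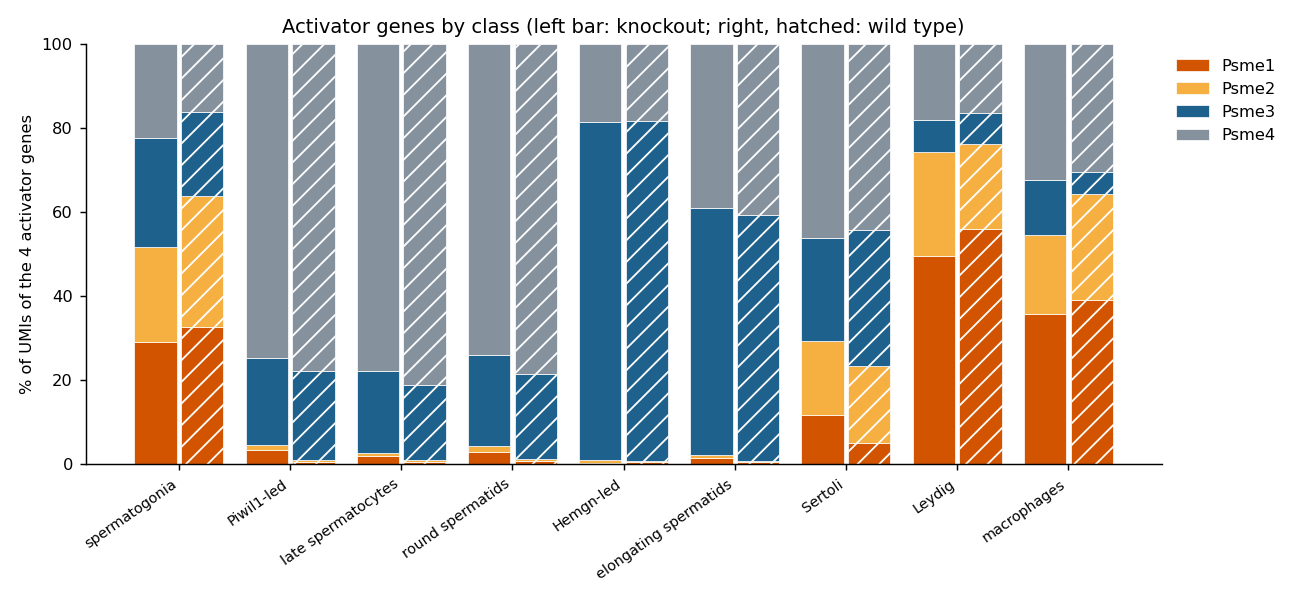
Share of the UMIs of the 4 activator genes held by each (y axis, per cent) by class (x axis), with the knockout bar left of the hatched wild type bar. Psme4 fills 74.0% to 81.1% of the bars from the Piwil1-led cluster to round spermatids, where its level was no higher than in free RNA, and Psme3 fills 80.4% of the knockout and 81.0% of the wild type Hemgn-led bar.

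Of the immune subunits, Psmb8 and Psmb9 were highest in the immune classes. Psmb8, the immune form of Psmb5, had 136 CPM (112 to 163) in knockout and 138 CPM (80.7 to 222) in wild type macrophages, where it made up 56.6% (49.5 to 63.5) in the knockout and 54.8% (36.0 to 72.7) in wild type of Psmb8 plus Psmb5 UMIs. Its level was 314 CPM (256 to 381) in knockout T or NK lymphocytes and 103 CPM (84.9 to 124) in knockout B lymphocytes. Psmb9, the immune form of Psmb6, had 48.0 CPM in knockout and 57.0 CPM in wild type macrophages. In spermatogonia there was 1 UMI of Psmb8 in the knockout and 2 in wild type, and 1 UMI of Psmb9 in each. Between the macrophages of the libraries the counting interval of the log2 ratio of Psmb8 was −0.77 to 0.80, too wide to tell a difference from none. The wild type macrophage class also held 3771 CPM of 7 neutrophil markers, against 8.19 CPM in the knockout class, and 0 of 11 macrophage markers were higher in the knockout (26166 CPM in the knockout and 34904 CPM in wild type), so comparisons of this class between genotypes carry that difference, whose part was not tested.

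Psmb10, the immune form of Psmb7, was seen in spermatogonia above free RNA. It had 46.8 CPM (32.4 to 65.4; 34 UMIs) in knockout and 62.3 CPM (48.2 to 79.3; 66 UMIs) in wild type spermatogonia, beside 53.8 CPM in knockout and 57.0 CPM in wild type macrophages. In the Piwil1-led cluster it had 5.11 CPM in the knockout and 5.98 CPM in wild type. Its share of Psmb10 plus Psmb7 UMIs was 27.2% (19.6 to 35.9) in knockout and 21.6% (17.1 to 26.6) in wild type spermatogonia. The barcodes with the fewest UMIs had 4.70 CPM in the knockout and 1.76 CPM in wild type. The thymus subunit Psmb11 had 11 UMIs in all knockout barcodes and 1 in wild type.

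**Figure D4:**
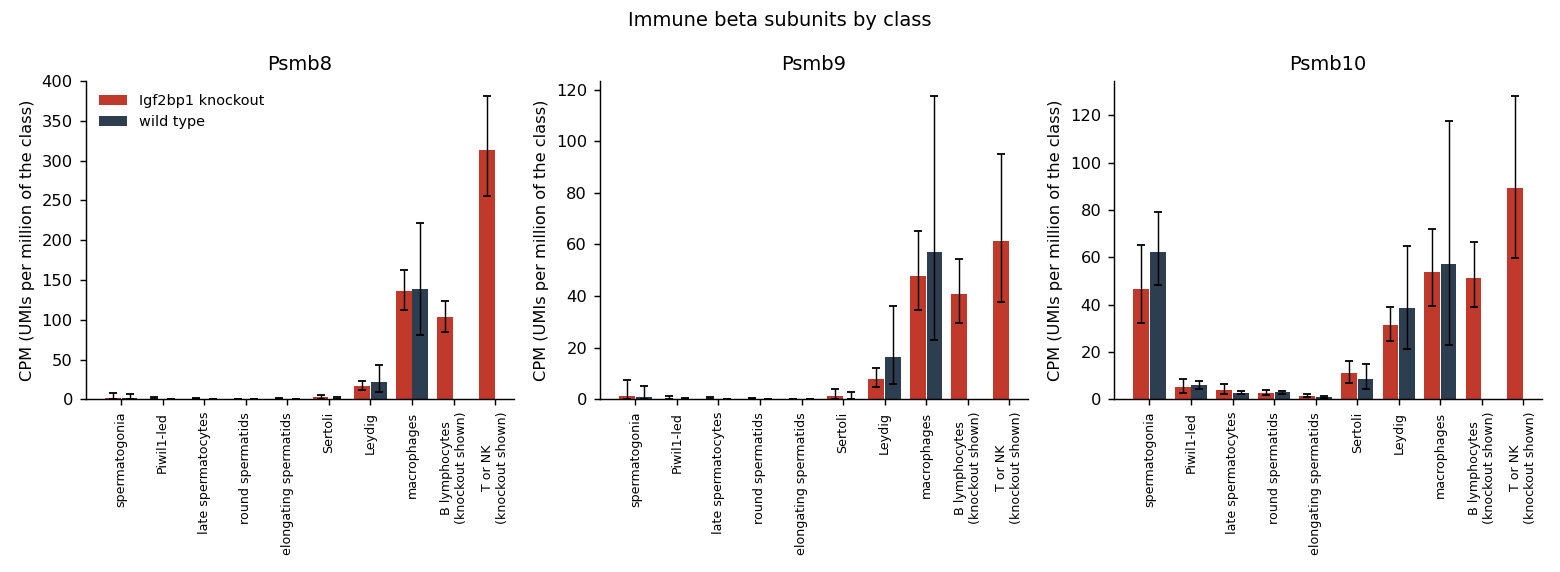
CPM (y axis) of Psmb8, Psmb9 and Psmb10 by class (x axis), knockout bars left of wild type bars, with exact Poisson 95% intervals; lymphocytes are shown for the knockout library, which held most of them. Psmb8 and Psmb9 are near 0 in germ cells, while Psmb10 reaches 46.8 CPM in knockout and 62.3 CPM in wild type spermatogonia.

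Between genotypes the summed proteasome level was lower in knockout spermatogonia. All members together had 7449 CPM (7251 to 7650) in knockout and 8467 CPM (8293 to 8644) in wild type spermatogonia, a log2 ratio of −0.18 (−0.23 to −0.14). In the other germ classes the log2 ratio lay between −0.04 and 0.04, the last of these in elongating spermatids, where TMM scaling turned it to −0.20. It was 0.02 in Sertoli cells, 0.12 in Leydig cells and 0.01 in macrophages.

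In spermatogonia the core rings summed lower in the knockout. The alpha ring had a summed log2 ratio of −0.24 (−0.35 to −0.14) and the beta ring −0.37 (−0.47 to −0.27), while the ATPases had 0.08 (−0.04 to 0.20), and the difference between these groups was not tested. Of 40 members with at least 100 UMIs in both libraries together, 4 were past 1.5-fold lower (background 3.25%) and 0 past 1.5-fold higher (background 3.39%), and the median log2 ratio was −0.23, against 0.00 over all 3565 genes measured. Over the 14 ring genes Psma1 to Psma7 and Psmb1 to Psmb7 the median was −0.40, and 12 of 14 were below 0. Psma6 and Psmb6 were the exceptions, at 0.02 and 0.06. The 6 ATPases had a median of 0.03.

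Psmb7, which carries the trypsin-like active site, had 125 CPM (101 to 154; 91 UMIs) in knockout and 227 CPM (199 to 257; 240 UMIs) in wild type spermatogonia, a log2 ratio of −0.85 (−1.22 to −0.50). The other members past 1.5-fold were Psmd14, the deubiquitinase of the regulatory particle, with 50.9 CPM in the knockout and 82.1 CPM in wild type (−0.69, −1.29 to −0.12), Psmd13, a lid subunit, with 93.6 CPM in the knockout and 146 CPM in wild type (−0.64, −1.08 to −0.22), and Psmg4, a chaperone of alpha ring assembly, with 66.1 CPM in the knockout and 102 CPM in wild type (−0.63, −1.15 to −0.12). At a limit of 2000 UMIs per cell Psmd14 was at −0.52 and Psmd13 at −0.51, which left 2 members past 1.5-fold, and with unnamed mixed clusters added Psmb7 was at −0.48, Psmd13 at −0.42, Psmd14 at −0.29 and Psmg4 at −0.16. With clusters weighed equally Psmd14 was at −0.35 and Psmg4 at −0.48. Just inside the limit stood Psma5 at −0.58 (−1.01 to −0.17), with 97.8 CPM in the knockout and 146 CPM in wild type. Psmc1, an ATPase, lay on the other side at 0.30 (0.00 to 0.59).

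The lower ring level was not the same in every part of the class. In the 3 sub-clusters of spermatogonia, which held 48 knockout and 75 wild type, 36 knockout and 48 wild type, and 14 knockout and 18 wild type cells, the median log2 ratio of the 14 ring genes was −0.39, −0.02 and −0.44. Psmb7 was at −0.84 (−1.28 to −0.42), −0.66 (−1.63 to 0.25) and −0.99 (−2.06 to −0.02) in them, and Psmd14 at −1.18 (−2.02 to −0.40), 0.29 (−0.99 to 1.57) and −0.26 (−1.82 to 1.17). Markers of other types moved with the genotype in these cells. All 9 Leydig markers were higher in the knockout, summing to 324 CPM, against 30.2 CPM in wild type, 10 of 11 macrophage markers were higher (178 CPM in the knockout and 32.1 CPM in wild type, Adgre1 at 0 in both), and 9 of 13 Sertoli markers were higher (340 CPM in the knockout and 164 CPM in wild type). Of the 12 spermatogonial markers 2 were higher in the knockout, and they summed to 1486 CPM in the knockout and 1878 CPM in wild type. The part of either in the ring values was not tested. With the library's own lowest-depth profile taken off, the median of the 14 ring genes was −0.35 and all 14 were below 0; with unnamed mixed clusters added to their closest class it was −0.05.

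In elongating spermatids 7 of 36 measured members were past 1.5-fold higher in the knockout (background 10.5%) and 0 past 1.5-fold lower (background 0.576%). The members' median was 0.42, and all 7642 genes measured had a median of 0.20. The 7 were Psma7, with 8.27 CPM (99 UMIs) in the knockout and 4.01 CPM (112 UMIs) in wild type, a log2 ratio of 1.04 (0.64 to 1.45), and Psma2 (1.01), Psmg4 (0.94), Psmc1 (0.84), Psmb2 (0.77), Psmd10 (0.68) and Psmd1 (0.62). All 7 were low in this class, at 4.34 to 9.77 CPM in the knockout and 2.40 to 5.44 CPM in wild type, under their levels in the barcodes with the fewest UMIs (28.6 to 51.7 CPM in the knockout and 19.4 to 38.8 CPM in wild type). The abundant Psmf1 stood at 0.03 (0.01 to 0.06) and Psma6 at −0.16 (−0.18 to −0.13). Free RNA differed in the same direction, with 96 Psma7 UMIs (33.2 to 50.1 CPM) in knockout and 36 UMIs (14.8 to 29.3 CPM) in wild type barcodes of the lowest depth. All 9 Leydig markers were higher in knockout elongating spermatids, summing to 132 CPM, against 10.6 CPM in wild type. The part of either was not tested. After the lowest-depth profile was taken off, Psma7 was at 0.74 and Psmd1 at −0.40.

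**Figure D5:**
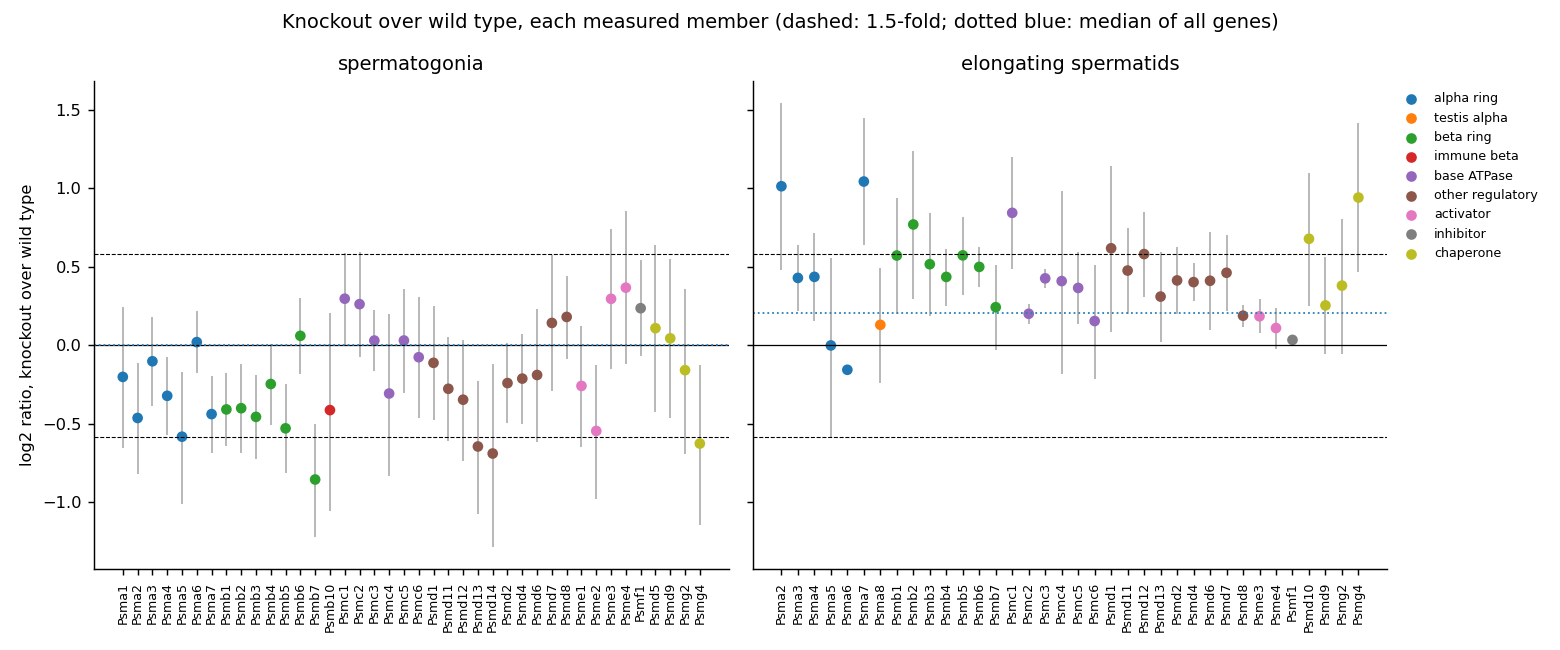
Log2 ratio of CPM, knockout over wild type (y axis), for each member with at least 100 UMIs (x axis, coloured by role), in spermatogonia (left) and elongating spermatids (right), with exact 95% intervals for counting error. In spermatogonia most alpha and beta ring points lie below 0, and in elongating spermatids most points lie above 0, where the median of all genes is 0.20.

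Few members stood out elsewhere. In the Piwil1-led cluster 1 of 41 was past 1.5-fold (background 3.96%), Psmd5 at 0.60. Psmd5 had 20.1 CPM (59 UMIs) in the knockout and 13.3 CPM (129 UMIs) in wild type. Its ratio fell under the limit with median-of-ratios scaling (0.55) and at clustering resolution 2 (0.48). It stayed past the limit with the lowest-depth profile taken off (0.62). Barcodes of the lowest depth held Psmd5 at 7.69 CPM in the knockout and 2.35 CPM in wild type, and their part was not tested. In late spermatocytes 0 of 41 (7.06%), in round spermatids 0 of 41 (5.62%), in the Hemgn-led cluster 0 of 24 (6.96%), in Sertoli cells 0 of 34 (6.94%) and in macrophages 0 of 16 (23.1%) were past 1.5-fold. In Leydig cells 1 of 38 was (14.6%), Psmg4 at −0.64 (−1.36 to 0.14), with 35.3 CPM in the knockout and 55.1 CPM in wild type. In the Prss50-led cluster 1 of 7 was (6.84%), Psmd2 at −0.71, with 142 CPM in the knockout and 232 CPM in wild type.

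Psmc1 had a log2 ratio above 0 in 7 of 7 classes with at least 100 UMIs, from 0.30 in spermatogonia to 0.84 in elongating spermatids. Free RNA held more of it in the knockout too, with 51.7 CPM (42.9 to 61.7) in knockout and 34.1 CPM (25.9 to 44.1) in wild type barcodes of the lowest depth, and its part was not tested. Round spermatids, with 45.7 CPM in the knockout and 31.2 CPM in wild type, did not exceed those levels. Late spermatocytes did, with 93.2 CPM in the knockout and 74.0 CPM in wild type, a log2 ratio of 0.33 (0.17 to 0.49). Psmb7 was below 0 in 6 of 8 classes, from −0.85 in spermatogonia up to 0.24 in elongating spermatids, where the median of all genes was 0.20. It had 70.3 CPM (62.4 to 78.9) in knockout and 91.3 CPM (87.5 to 95.2) in wild type late spermatocytes (−0.38, −0.56 to −0.20). Barcodes of the lowest depth held Psmb7 at 76.4 CPM (65.6 to 88.5) in the knockout and 76.4 CPM (63.8 to 90.7) in wild type. The knockout level thus did not exceed that of free RNA, and in wild type the intervals overlapped. These classes come from the same pair of libraries, so they are not repeats of the comparison.

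Genes that work with the proteasome were read from lists of cofactors, regulators, the p97 segregase and interferon or peptide-loading partners. In spermatogonia 0 of 11 cofactors, 0 of 4 regulators and 0 of 6 p97 genes measured were past 1.5-fold, where 3.39% of all genes were higher and 3.25% lower. In Leydig cells 1 of 4 regulators was (background 14.6%), Nfe2l1, the factor that induces subunit genes, with 262 CPM in the knockout and 163 CPM in wild type (0.69, 0.30 to 1.10). In Sertoli cells 2 of 3 regulators measured were (background 6.94%), Nfe2l1 with 64.6 CPM in the knockout and 28.3 CPM in wild type (1.19, 0.66 to 1.75) and Nfe2l2 with 44.4 CPM in the knockout and 25.3 CPM in wild type (0.81, 0.23 to 1.43). Markers of other types moved with the genotype in these Sertoli cells. All 9 Leydig markers were higher in the knockout (975.3 CPM in the knockout and 49.7 CPM in wild type). So were 11 of 11 macrophage markers (223 CPM in the knockout and 55.1 CPM in wild type). Of the 13 Sertoli markers only 3 were higher in the knockout, and the 13 summed to 11894 CPM in the knockout and 14866 CPM in wild type. The part of these differences was not tested.

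In elongating spermatids, where 10.5% of all genes were past 1.5-fold higher in the knockout, 1 of 15 cofactors was, Zfand5 (0.68), and 1 of 6 p97 genes, Vcp, with 17.9 CPM in the knockout and 9.13 CPM in wild type (0.97). Of the peptide-loading partners 2 of 2 measured were, Cd74 (1.87) and Tapbp (0.80). Cd74 is a macrophage and B cell gene, whose level in macrophages was 5891 CPM in the knockout and 10320 CPM in wild type.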

How the data were processed

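For both testis libraries the deposited values are unnormalized UMI counts of each gene in each barcode, all whole numbers. Per the submitters' processing notes they were made with Cell Ranger 2.2.0 and STAR on mm10. The authors' cell calling step is not described. Barcodes with at least 500 UMIs, 250 genes and at most 20% mitochondrial UMIs were kept (17703 knockout, 17002 wild type). Cells of both libraries were clustered without the members and listed partner genes (scanpy 1.11.5, leidenalg 0.10.2; 30 components, 15 neighbours, resolution 1) and named from marker genes. The numbers used as limits in naming were chosen with the data in view, no doublet caller was used, and clusters mixing types were left unnamed (624 and 4785 knockout, 205 and 84 wild type barcodes). Counts were summed per class and library, for classes with at least 30 cells in each.

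A gene was measured in a class with at least 100 UMIs in both libraries together and called past 1.5-fold; all members may be named, and of the partner lists at most 4 genes a class, those with the largest ratio past that limit. Intervals are exact Poisson, Clopper-Pearson and conditional binomial at 95% (scipy 1.17.1), cover counting error only, and were tested on simulated data. Free RNA was read from the tenth of barcodes with the fewest UMIs, which could belong to any class and may also hold cells. TMM came from edgeR 4.0.16, used for scaling only. Levels are not divided by gene length, so they are compared between classes and not between genes. Positions are from GENCODE M21 on GRCm38. The members and lists were chosen with earlier results of these data known. Some results of the partner lists are not reported here.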

Additional observations from a re-analysis of the deposited data

Results flagged for a closer look

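Psmg4, a chaperone of alpha ring assembly, differed in direction between classes in the knockout and wild type comparison. Its log2 ratio was 0.94 in elongating spermatids, with 5.85 CPM in the knockout and 3.04 CPM in wild type. The log2 ratio of Psmg4 was −0.63 in spermatogonia and −0.64 in Leydig cells, where the counting interval was too wide to tell a difference from none. With 1 library of each genotype the difference between the classes was not tested.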

How the results depend on the processing

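The 14 calls of a member in a class gave 111 values under other settings. Of these, 85 stayed past 1.5-fold, 25 kept their direction under that limit, and 1 turned round, Psmd1 in elongating spermatids at −0.40 once the lowest-depth profile was taken off. The summed log2 ratio of spermatogonia was −0.050 with mixed clusters assigned to their closest class and stayed below 0 under every alternative run. That of elongating spermatids was −0.20 with TMM and −0.25 with median-of-ratios scaling, which moved the median of all genes by 0.24 and 0.29, 0.019 after the lowest-depth profile was taken off, 0.070 with cells named one by one by marker score, 0.087 with mixed clusters assigned, and 0.31 without Psma6, Psmf1 and Psmc3, an alternative chosen after seeing the data. In the other classes TMM gave −0.0025 in round spermatids, 0.052 in the Hemgn-led cluster, −0.067 in Sertoli and 0.027 in Leydig cells. Median-of-ratios scaling gave −0.023 in the Piwil1-led cluster, −0.074 in late spermatocytes, −0.053 in round spermatids, −0.039 in the Hemgn-led cluster and −0.071 in Sertoli cells. Without Psma6, Psmf1 and Psmc3 the ratio was −0.015 in the Piwil1-led cluster, 0.052 in round spermatids and 0.067 in Sertoli cells. Sertoli cells also gave 0.10 with at least 2000 UMIs, −0.065 after the lowest-depth profile was taken off and −0.083 with clusters weighed equally. Leydig cells gave 0.25 by marker score and 0.20 with mixed clusters assigned, and late spermatocytes 0.027 by marker score. The cause of these shifts was not tested.

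Counts of members past 1.5-fold depended on the limits. With at least 20 UMIs they were 8 in the Prss50-led cluster, 1 in late spermatocytes, 2 in round spermatids, 6 in the Hemgn-led cluster, 14 in elongating spermatids, 4 in Sertoli cells, 4 in Leydig cells and 10 in macrophages. Past 2-fold they were 0 in spermatogonia, the Prss50-led and Piwil1-led clusters and Leydig cells, and 2 in elongating spermatids. At the stricter depth and mitochondrial limits they were 2 in spermatogonia and 4 in Sertoli cells. TMM gave 4 in elongating spermatids, 1 in the Hemgn-led cluster and 1 in macrophages, and median-of-ratios scaling 3, 0 in the Piwil1-led cluster and 1 in macrophages. Marker scores gave 12 in spermatogonia, 2 in late spermatocytes, 5 in round spermatids, 18 in elongating spermatids, 9 in Sertoli cells, 14 in Leydig cells and 15 in macrophages. Under marker scores the Psma8 share was 18.9% in knockout spermatogonia, 73.9% in knockout late spermatocytes, and 51.6% in knockout and 61.1% in wild type round spermatids. No paired analysis was possible because each genotype has 1 library. Depth limits the wild type macrophages, Leydig cells and lymphocytes most, and low members of spermatogonia, where 100 UMIs over both libraries leave wide intervals.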
